A study of Rattus norvegicus with 21 samples.

Results

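The low dose of the ethanol extract of Jakyakgamcho-tang (JGT) was compared with vehicle in PC12 cells. The comparison used the 3 libraries titled as low-dose ethanol extract and the 3 titled as vehicle, 6 of the 21 libraries of the series. PC12 cells came from a pheochromocytoma, a catecholamine-secreting tumour of the adrenal medulla, in a rat, and they serve as a model of nerve cells. The labels call it a neuronal cell, and its lineage markers were not checked here because the gene tables hold Ensembl IDs without symbols. JGT is a traditional decoction made from the roots of peony and licorice. Vehicle cells, which the labels also call untreated, received no extract, and the low-dose cells received 4 µg/mL of the ethanol extract. The other 15 libraries were 3 each of the ethanol extract at 20 and 100 µg/mL and of the water extract at 4, 20 and 100 µg/mL. The title of the series names as its aim the transcription factors behind JGT gene signatures, and a comparison of 1 extract and dose with vehicle gives the gene changes from which such factors would be sought.

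Water and ethanol draw different compounds from a plant. Polar glycosides pass into both, while less polar flavonoids and other phenolics of licorice dissolve better in ethanol. An RNA sequencing count reflects the amount of a gene's messenger RNA relative to all others in the library, so it shows the balance between transcripts rather than the RNA content of a cell. A lower count of a gene can come from fewer cells of a type that expresses it or from less of its RNA per cell, and these cannot be told apart in bulk RNA.

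Between low-dose ethanol extract and vehicle, 347 of 12241 genes tested (2.83%) differed at an adjusted p under 0.05 by edgeR's quasi-likelihood test. In the low-dose libraries 220 genes were higher (1.8% of those tested) and 127 lower (1.04%) than in vehicle. Without low-dose replicate 1 the counts were 64 and 33, and leaving out any 1 of the 6 libraries gave 45 to 351 higher and 27 to 200 lower genes. The libraries of the other groups stayed in these fits. In the 6 libraries alone the counts were 61 higher and 54 lower genes. In those libraries without low-dose replicate 1 they were 911 and 919. The changes were small. The median log2 change was 0.54 among the higher and -0.50 among the lower genes, against 0.01 over all genes tested. At least 2-fold changes were seen in 29 of the higher and 4 of the lower genes. In all 347 genes the 3 low-dose libraries did not overlap the 3 vehicle libraries, which was also so in 32.6% of all genes tested (16.8% higher, 15.8% lower). At an unadjusted p under 0.05 the count was 2245 (18.3%). The p-values rest on the spread within groups over all 21 libraries in the fit, not only over the 6 compared. The labels do not say whether the 3 libraries of a group were separate cultures, so that spread may be technical.

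**Figure D1:**
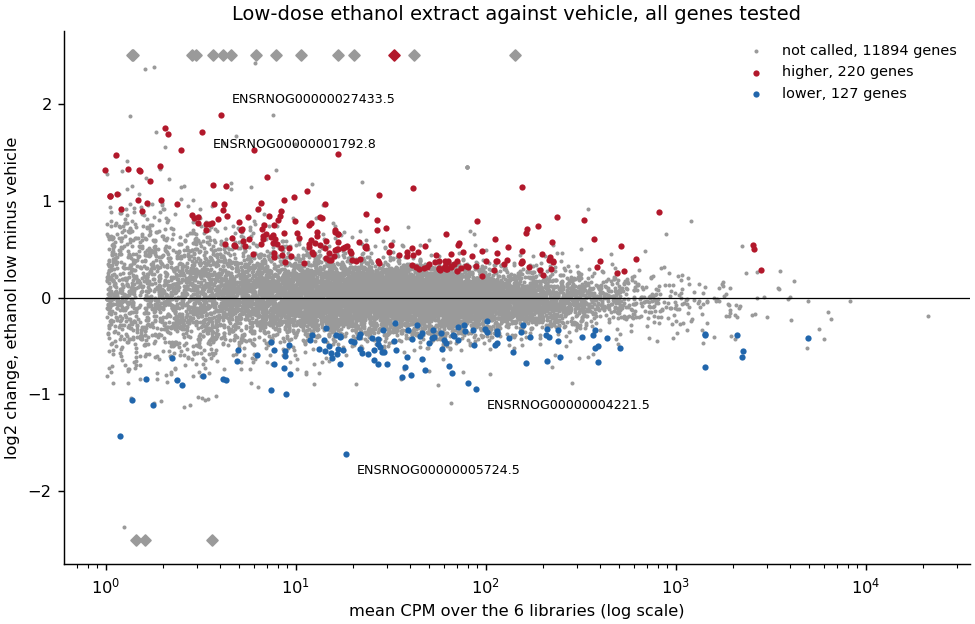
The log2 change from vehicle to low-dose ethanol extract (vertical axis) is plotted against the mean CPM (the count relative to the scaled library total) over the 6 libraries (horizontal axis, log scale) for the 12241 genes tested. The 220 higher genes are red and the 127 lower genes blue, and the 18 genes beyond 2.5 log2 units, 1 of them called, are drawn as diamonds at the edge.

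Genes are named by ID only, 2 in each direction, because none of the 32883 IDs could be paired with a symbol. They had the largest log2 changes among 64 higher and 30 lower genes called both with and without low-dose replicate 1 and whose groups did not overlap. Some called genes that did not pass this rule changed more. The largest change among the 220 higher genes was 5.09 log2 units, and 4 of the 127 lower genes fell at least 2-fold. Without symbols, no promoter or protein sequence could be matched to the named genes. In vehicle, the deposited TPM values, which are per length and can be compared between genes, were 52.3 ± 1.88 for ENSRNOG00000004221.5, 8.26 ± 0.80 for ENSRNOG00000005724.5, 3.27 ± 0.706 for ENSRNOG00000027433.5 and 0.827 ± 0.22 for ENSRNOG00000001792.8 (SD, n = 3 each). The 2 genes that rose were thus less abundant in vehicle cells than the 2 that fell. All other levels of these genes below are CPM.

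ENSRNOG00000001792.8, a gene of 2527 bases with 3 annotated transcripts, had the smallest p-value of all genes tested. It stood at 1.83, 1.49 and 1.12 CPM in vehicle replicates 1, 2 and 3 and at 5.67, 4.68 and 4.50 CPM in low-dose replicates 1, 2 and 3. The lowest low-dose library lay above the highest vehicle library, as the naming rule required, and the low-dose libraries lay close together. It rose by 1.71 ± 0.192 log2 units (SE; edgeR adjusted p = 0.000224), and without low-dose replicate 1 it was 1.62 ± 0.20 (SE; edgeR adjusted p = 0.00194). The vehicle libraries held 22 to 42 counts of it and the low-dose libraries 49 to 99, all whole numbers, so no reads were divided between similar genes.

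ENSRNOG00000027433.5, of 888 bases and 1 transcript, stood at 1.56, 2.08 and 1.38 CPM in the vehicle libraries. In low-dose replicates 1, 2 and 3 it stood at 9.03, 6.22 and 4.04 CPM. Every low-dose library was above vehicle, as the naming rule required, but they differed from each other by more than the vehicle libraries did. It rose by 1.88 ± 0.266 log2 units (SE; edgeR adjusted p = 0.00116), falling to 1.59 ± 0.251 without low-dose replicate 1 (SE; edgeR adjusted p = 0.00676). With fragment length as a covariate and 18 libraries it was 1.08 ± 0.243 (SE; edgeR adjusted p = 0.017). Its counts were not whole in all 21 libraries, so RSEM divided reads between it and similar sequences and its level is uncertain.

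ENSRNOG00000005724.5, of 4540 bases and 1 transcript, fell from 26.1, 25.5 and 31.2 CPM in the vehicle libraries to 8.57, 11.2 and 7.22 CPM in low-dose replicates 1, 2 and 3. The groups were far apart, and low-dose replicate 1 lay between the other two. The difference was -1.61 ± 0.285 in log2 units (SE; edgeR adjusted p = 0.00578), and without low-dose replicate 1 it was -1.59 ± 0.328 (SE; edgeR adjusted p = 0.0395). Its counts too were not whole in all 21 libraries, with 600.38 to 611.34 in vehicle and 74.07 to 196.84 at the low dose, so its level depends on how reads were divided.

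ENSRNOG00000004221.5, of 3130 bases and 1 transcript, stood at 112, 116 and 125 CPM in vehicle and at 37.2, 61.4 and 82.5 CPM in low-dose replicates 1, 2 and 3. It was lower in every low-dose library, as the naming rule required, and most so in replicate 1. The difference was -0.95 ± 0.188 in log2 units (SE; edgeR adjusted p = 0.0109), and -0.71 ± 0.145 without low-dose replicate 1 (SE; edgeR adjusted p = 0.0329). Its counts were whole numbers, 2450 to 2727 in vehicle and 321 to 1816 at the low dose. It was no longer called when vehicle replicate 3 was left out (edgeR adjusted p = 0.0604), in a fit of the 6 libraries alone (edgeR adjusted p = 0.118) and with the fragment length covariate and 18 libraries (edgeR adjusted p = 0.0746). The other 3 named genes were called under all 21 alternatives. However, 1 of these, the fit without low-dose replicate 1, was part of the rule that named them. The alternatives reuse the same libraries and are not independent of each other.

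**Figure D2:**
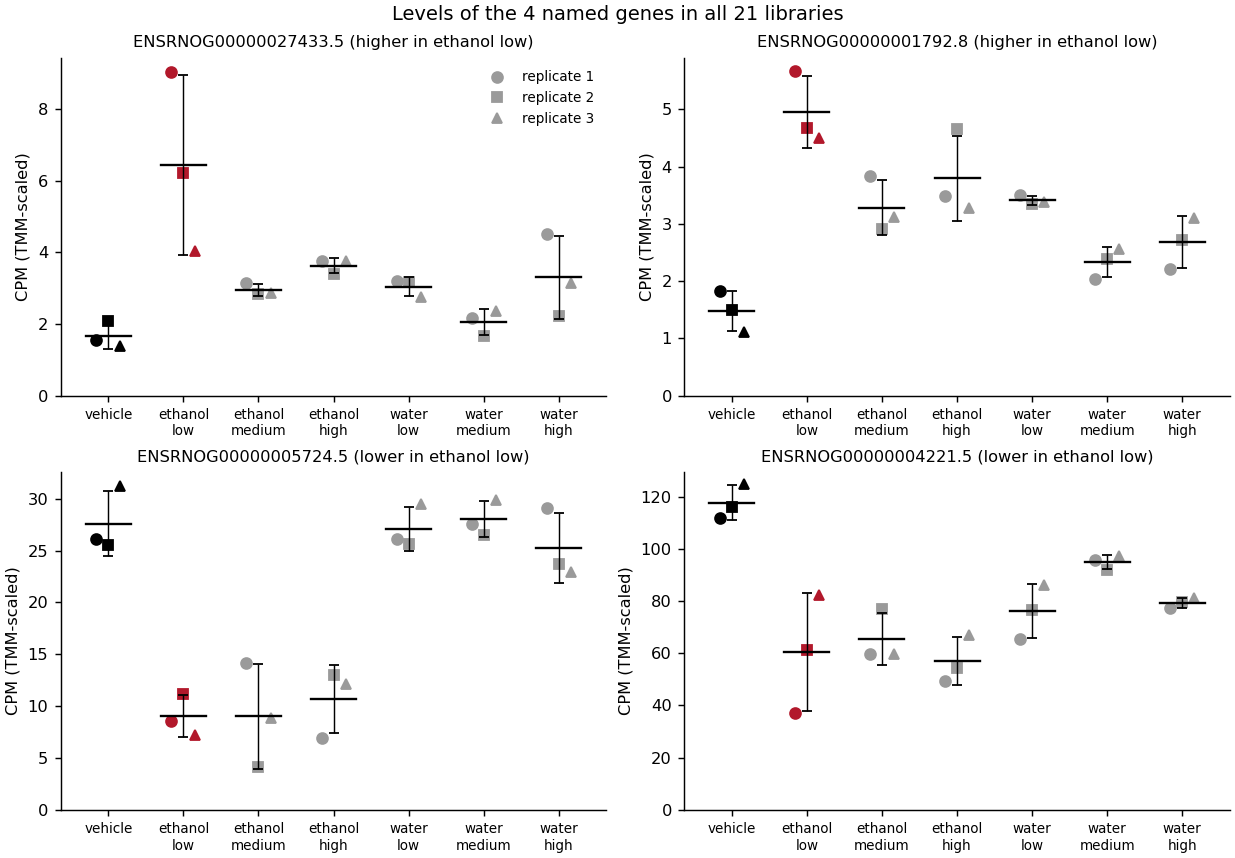
Levels in CPM (vertical axis, from 0) of the 4 named genes in the 7 groups (horizontal axis), with 1 symbol per replicate number, the mean as a bar and the SD as whiskers. Vehicle is black, low-dose ethanol extract red and the other groups grey. The red and black points do not overlap in any of the 4 genes, which was a condition for naming them.

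The low-dose libraries were not alike. Low-dose replicate 1 had a total of 8344416 expected counts, against 17514206 to 23781470 in the other 5 libraries compared. Fragment lengths, taken from the deposited effective lengths, were 193.8, 205.3 and 216.3 bases in low-dose replicates 1, 2 and 3 and 221.7, 223.5 and 233.5 bases in vehicle replicates 1, 2 and 3. All 3 low-dose libraries therefore had shorter fragments than every vehicle library. Across genes, the median distance of a library from the median of the libraries was 0.192 log2 units in low-dose replicate 1 and 0.0625 to 0.0908 in the other 5. Over the series, 2 medium-dose ethanol libraries stood apart as well, at 0.217 and 0.327 log2 units. Medium-dose ethanol replicate 1 was at 0.151 log2 units and was kept in the fits of 18 libraries.

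For the shares and medians given next, distance from vehicle was taken in the direction of each gene's fitted change. All 3 low-dose libraries helped to set that direction, also for the shares over all genes tested. Low-dose replicate 1 lay farthest from vehicle in 277 of the 347 genes (79.8%), against 60.6% of all tested, and the called genes often lay nearest in replicate 3. This order, which is that of rising fragment length, held in 143 of the 220 higher (65%) and 85 of the 127 lower genes (66.9%), against 37.9% of all genes tested. The reverse order held in 3 of the higher and 6 of the lower genes, against 11.5% of all tested. Of the named genes, ENSRNOG00000027433.5, ENSRNOG00000001792.8 and ENSRNOG00000004221.5 showed the first order and ENSRNOG00000005724.5 did not. For the higher genes the median log2 distance from the vehicle mean was 0.711, 0.513 and 0.394 in replicates 1, 2 and 3, and for the lower genes the distances were 0.618, 0.474 and 0.386 downward. Even the library nearest to vehicle, replicate 3, was thus displaced by more than the 0.0916 units that it showed over all genes tested. These genes were chosen by their distance from vehicle in the same libraries, and the part of fragment length in the result was not tested apart from the covariate fits.

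The higher and lower genes overlapped widely in length, and their difference in length was not tested. Higher genes had a median length of 2121 bases and lower genes one of 2800 bases, while that of all 12241 was 2213 bases. Among the 1089 genes of at least 5000 bases, 7 were higher (0.643%) and 23 lower (2.11%). Among the 3979 genes of 1000 to 2000 bases it was the other way round, with 84 higher (2.11%) and 33 lower (0.829%). The median log2 distance from vehicle of the longest genes was -0.215 in low-dose replicate 1, -0.0719 in replicate 2 and -0.0356 in replicate 3. Among the 3 low-dose libraries the longest genes were thus lowest in the one with the shortest fragments. A different measure, taken over all genes, was not in the order of fragment length across the series. Spearman's rho between length and the distance from the median of all libraries was -0.156, -0.103 and -0.00572 in low-dose replicates 1, 2 and 3. It was 0.107 in medium-dose ethanol replicate 3, which had the shortest fragments of all (178.7 bases). It was 0.43 in medium-dose ethanol replicate 2 (202.5 bases), -0.445 in replicate 1 of that group (224.4 bases) and 0.249 in vehicle replicate 1. In the 5 libraries left without low-dose replicate 1 there were 35 higher (3.21%) and 164 lower (15.1%) of the longest genes, and 354 (8.9%) and 243 (6.11%) of those of 1000 to 2000 bases.

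**Figure D3:**
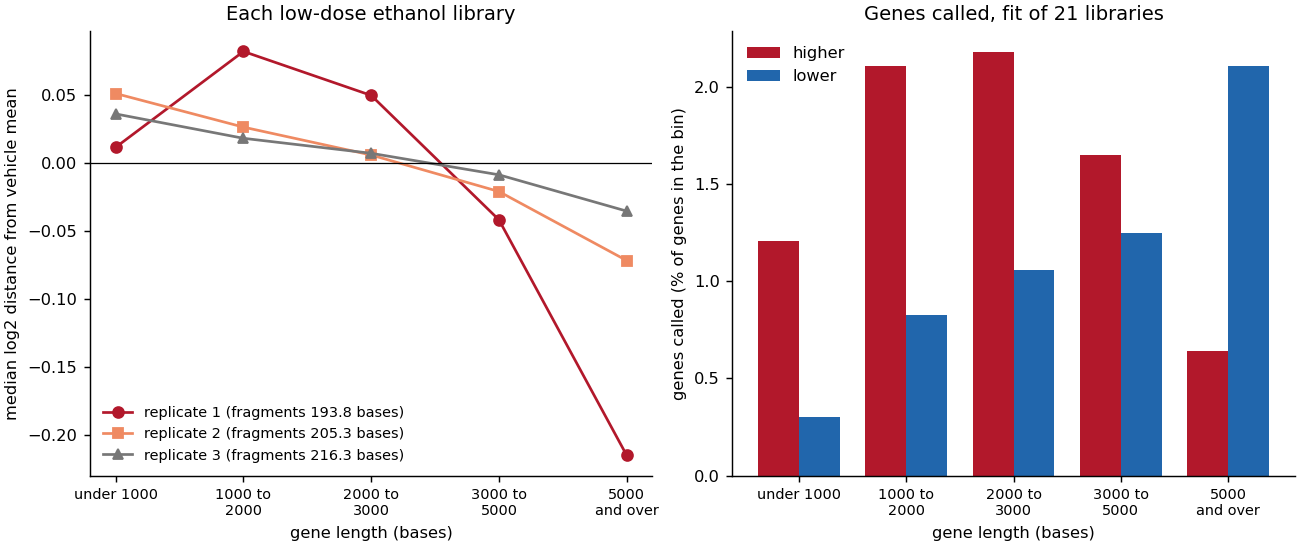
Left, the median log2 distance from the vehicle mean (vertical axis) of all tested genes in 5 classes of gene length (horizontal axis, bases), with a line for each low-dose ethanol library; the longest class falls to -0.215 in replicate 1 and -0.0356 in replicate 3. Right, the percentage of genes in each length class called higher (red) or lower (blue) in the fit of 21 libraries; higher calls outnumber lower ones in every class but the longest.

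By CPM, which is not scaled to gene length, higher genes were more often of low abundance than lower genes. The median of the mean CPM over the 6 libraries was 16.6 for the higher and 38.2 for the lower genes, against 29.5 over all genes tested. By TPM, which is per length, the medians lay closer together. They were 15.3 for the higher and 17.8 for the lower genes, against 18.9 over all genes tested. Below 5 CPM, 40 of 1927 genes were higher and 12 lower. At 100 CPM and above, 40 of 2206 were higher and 34 lower. Reads divided between genes were no more frequent among called genes, since 13.5% of the 347 and 14.8% of all tested had a fractional count in some of the 6 libraries. Among the tested genes, 5 had no count in any vehicle library and 2 had none in any low-dose library. The filter of 1 CPM on average can leave out genes absent from a group. Over all 32883 IDs, 18 had counts in every low-dose library and none in vehicle, and 47 showed the reverse. These counts were not scaled to the library totals. The total was 8344416 in low-dose replicate 1 and 17514206 to 23781470 in the other 5 libraries compared. The part of depth in the 18 and 47 was not tested.

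Without low-dose replicate 1, and with the other 20 libraries kept in the fit, 64 genes were higher (0.523%) and 33 lower (0.27%), 0.792% together. Of these 97 genes, 94 were among the 347, all with the same direction. A reversal was hardly possible, since the low-dose and vehicle libraries did not overlap in any of the 347. Low-dose replicate 1, which had no part in that fit, lay above all 3 vehicle libraries in all 64 of the higher genes and below them in 30 of the 33 lower genes. Over all genes tested it lay above them in 42.1% and below them in 40.4%. The vehicle libraries are the same in both statements.

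The count of genes moved with the libraries in the fit, and so did the common spread, though not always together. The part of the spread, of group size and of degrees of freedom in these counts was not tested. The common coefficient of biological variation was 0.123 with 21 libraries and 0.116 without low-dose replicate 1. It was 0.0569 in the 18 libraries left after the 2 medium-dose ethanol libraries were removed too, where 696 genes were higher (5.69%) and 673 lower (5.5%), 11.2% together. In the 6 libraries alone it was 0.0988, with 61 higher (0.498%) and 54 lower genes (0.441%), 0.939% together. In those 6 less low-dose replicate 1 it was 0.0456, with 911 higher (7.44%) and 919 lower (7.51%), 14.9% together. Of the 347 genes, 336 were called again with 18 libraries, 81 with 6 and 332 with 5, with none in the opposite direction. These fits reuse the same low-dose and vehicle libraries, which did not overlap in any of the 347. The direction could therefore hardly reverse, and its agreement is no separate evidence. Leaving out vehicle replicate 1, 2 or 3 gave 74, 108 and 45 higher and 37, 65 and 27 lower genes. Leaving out low-dose replicate 2 gave 96 higher and 45 lower genes, and leaving out replicate 3 gave 351 and 200. With fragment length as a covariate, 178 genes were higher (1.45%) and 149 lower (1.22%) with 21 libraries, 2.67% together, and 183 of the 347 were among them. The covariate with 18 libraries gave 189 higher (1.54%) and 198 lower genes (1.62%), 3.16% together, holding 177 of the 347.

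**Figure D4:**
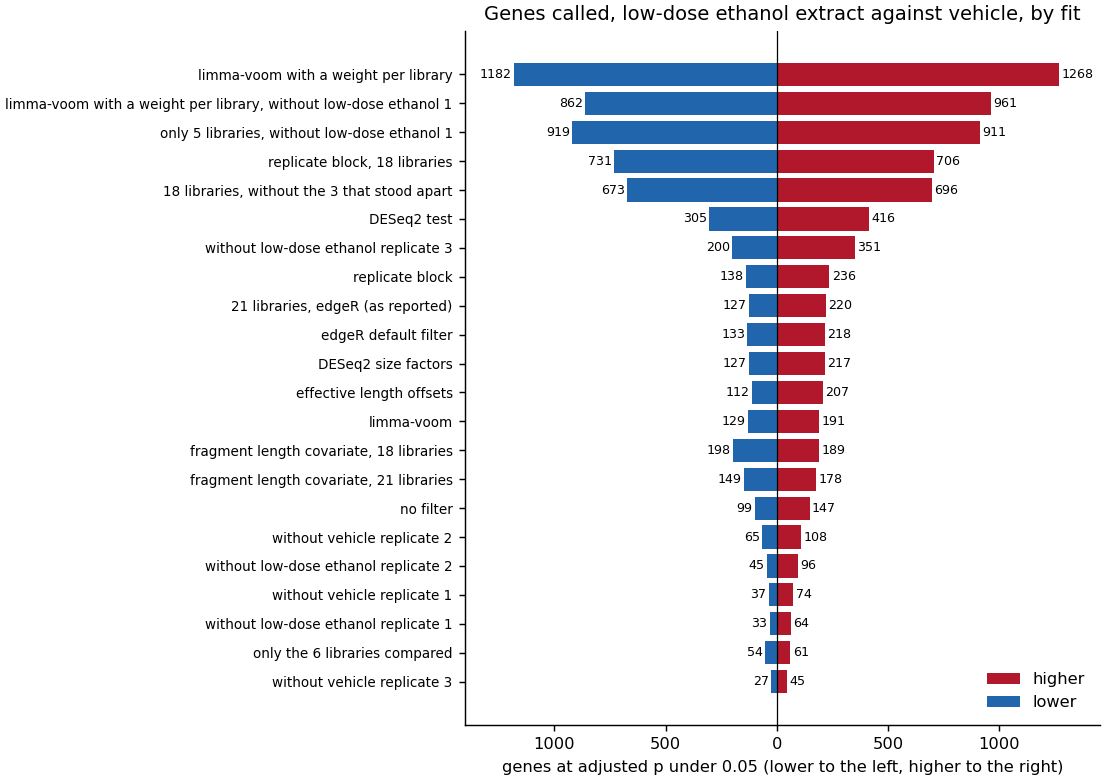
The number of genes higher (red, to the right) and lower (blue, to the left) in low-dose ethanol extract than in vehicle at an adjusted p under 0.05 (horizontal axis) under each fit (vertical axis). The counts run from 45 higher and 27 lower without vehicle replicate 3 to 1268 higher and 1182 lower when limma-voom gives each library a weight.

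A set of 38 genes, 24 higher and 14 lower, was called under all 21 alternatives, and 3 of the 4 named genes were among them. Naming already required a call under 1 of these alternatives, and all of them reuse the same libraries. The median log2 change was 0.80 among these 24 higher genes and -0.59 among the 14 lower genes, in the fit of 21 libraries. Their median lengths were 2330 and 2627 bases. Low-dose replicates 1, 2 and 3 were in falling distance from vehicle in 17 of the 24 and in 9 of the 14, against 37.9% of all tested.

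The same genes were then followed in the high-dose libraries of both extracts, which are not part of the low-dose contrast. They entered the fit of 21 libraries through the shared spread, and so had some part in which genes were called. High-dose ethanol and high-dose water libraries had fragments of 213.6 to 231.1 and 216.6 to 227.3 bases, so their lengths overlapped. Of the 220 genes higher at the low dose, 203 (92.3%) had a fitted log2 difference above 0 between high-dose ethanol and high-dose water extract, against 50% of all genes tested. Of the 127 lower genes, 14 (11%) were above 0. The median difference was 0.201 for the higher and -0.198 for the lower genes, against 0 over all genes. In the fit of 5 libraries, which holds no high-dose library, 818 of the 911 higher (89.8%) and 100 of the 919 lower genes (10.9%) were above 0. The median differences were small, and with 21 libraries 1 of the 220 and 1 of the 127 were called in that comparison, beside 0.0245% called each way, 0.049% together, of all tested. With 18 libraries 76 of the 220 were called higher and 0 lower, and 53 of the 127 were called lower and 1 higher, beside 6.91% called higher and 6.63% called lower, 13.5% together, of all tested.

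The named genes differed in that comparison. ENSRNOG00000005724.5 stood at 6.91, 13 and 12.1 CPM in high-dose ethanol and at 29.1, 23.7 and 22.9 CPM in high-dose water libraries, which is -1.23 ± 0.274 in log2 units (SE; edgeR adjusted p = 0.108, and 0.00315 with 18 libraries). For ENSRNOG00000004221.5 the difference was -0.48 ± 0.187 log2 units (SE; edgeR adjusted p = 0.338, and 0.0305 with 18 libraries). ENSRNOG00000001792.8 had 0.49 ± 0.179 (SE; edgeR adjusted p = 0.30, and 0.0525 with 18 libraries). For ENSRNOG00000027433.5 it was 0.16 ± 0.252 (SE; edgeR adjusted p = 0.887), so the named gene with the larger rise at the low dose showed no detectable difference between the extracts at the high dose.

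**Figure D5:**
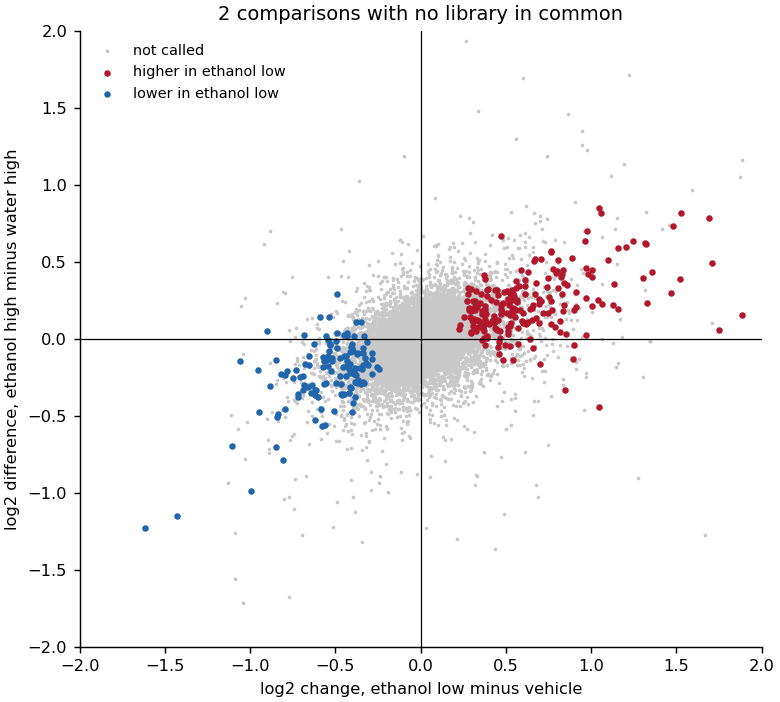
The log2 change from vehicle to low-dose ethanol extract (horizontal axis) and the log2 difference of high-dose ethanol from high-dose water extract (vertical axis) for all tested genes within 2 log2 units, which leaves out 31 genes, 1 of them called. The comparisons share no library; 203 of the 220 red genes lie above 0 on the vertical axis and 14 of the 127 blue genes do.

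Against the water extract at the same dose of 4 µg/mL, low-dose ethanol extract gave 1 higher (0.00817%) and 2 lower genes (0.0163%) in the edgeR fit, 0.0245% together, and 679 had an unadjusted p under 0.05 (5.55%). DESeq2 gave 26 genes and limma-voom gave 4. All 3 genes of the edgeR fit were among the 347. None of the 4 named genes was among them. ENSRNOG00000005724.5 came nearest, at 26.1, 25.6 and 29.5 CPM in the low-dose water libraries, lying -1.59 ± 0.284 log2 units from them (SE; edgeR adjusted p = 0.0725, and 0.0158 with 18 libraries). No low-dose ethanol library overlapped them. ENSRNOG00000027433.5 differed by 1.03 ± 0.249 (SE; edgeR adjusted p = 0.397), ENSRNOG00000001792.8 by 0.52 ± 0.176 (SE; edgeR adjusted p = 0.759) and ENSRNOG00000004221.5 by -0.32 ± 0.187 (SE; edgeR adjusted p = 0.892). With 18 libraries there were 19 higher (0.155%) and 26 lower genes (0.212%), 0.368% together, and 13 of these 45 were among the 347.

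Against the same vehicle libraries the low-dose water extract gave 28 higher (0.229%) and 20 lower genes (0.163%), 0.392% together. ENSRNOG00000001792.8 was among the higher, with 3.50, 3.35 and 3.39 CPM in its libraries which is 1.19 ± 0.189 log2 units from vehicle (SE; edgeR adjusted p = 0.00622). Its change with low-dose ethanol extract, given above, shares those vehicle libraries. ENSRNOG00000005724.5 moved by -0.03 ± 0.259 log2 units with low-dose water extract (SE; edgeR adjusted p = 0.992). ENSRNOG00000027433.5 was at 2.75 to 3.21 CPM and ENSRNOG00000004221.5 at 65.6 to 86.2 CPM there, and neither passed with 21 libraries (edgeR adjusted p = 0.174 and 0.149), while both passed with 18 (edgeR adjusted p = 0.0158 and 0.00592).

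Against the high dose of the same extract (100 µg/mL) the low dose gave 0 higher genes and 1 lower gene (0.00817%) in the edgeR fit, and 581 had an unadjusted p under 0.05 (4.75%). DESeq2 gave 23 genes and limma-voom gave 1. The gene called by edgeR was not among the 347. For the named genes, the low dose minus the high dose was 0.78 ± 0.25 for ENSRNOG00000027433.5, 0.36 ± 0.177 for ENSRNOG00000001792.8, -0.25 ± 0.293 for ENSRNOG00000005724.5 and 0.10 ± 0.188 for ENSRNOG00000004221.5 in log2 units (SE; edgeR adjusted p = 0.692, 1, 1 and 1). With 18 libraries the low dose had 42 higher (0.343%) and 42 lower genes (0.343%), 0.686% together, and 9 of these 84 were among the 347.

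Across all groups, ENSRNOG00000005724.5 split the libraries by extract. Its 9 ethanol libraries lay between 4.08 and 14.2 CPM and its 9 water libraries between 22.9 and 29.9 CPM, with vehicle at 25.5 to 31.2 CPM. The order of the ethanol group means was 9.01 ± 2.04 at the low, 9.05 ± 5.08 at the medium and 10.7 ± 3.29 CPM at the high dose (SD, n = 3 each), which did not differ beyond their spread. The other 3 genes did not split in this way. In the water groups and the fit of 21 libraries, only ENSRNOG00000001792.8 at the low dose passed the test among them. With 18 libraries all 3 passed against vehicle in low-dose and high-dose water, but not in medium-dose water. In high-dose water the edgeR adjusted p was 0.0186 for ENSRNOG00000027433.5, 0.00837 for ENSRNOG00000001792.8 and 0.0207 for ENSRNOG00000004221.5. ENSRNOG00000004221.5 had its highest mean in vehicle, 118 ± 6.69 CPM, followed by 95.0 ± 2.66 in medium-dose water, 79.2 ± 1.97 in high-dose water, 76.1 ± 10.3 in low-dose water, and 65.4 ± 9.89, 60.3 ± 22.7 and 56.9 ± 9.23 CPM in medium-, low- and high-dose ethanol (SD, n = 3 each). The 3 ethanol groups and low-dose water overlapped in their libraries, and medium-dose water stood apart from vehicle and from all others. ENSRNOG00000001792.8 was highest at the low dose of ethanol, at 4.95 ± 0.634 CPM, then 3.80 ± 0.74 at the high dose, 3.41 ± 0.0765 in low-dose water and 3.29 ± 0.484 at the medium dose of ethanol (SD, n = 3 each). ENSRNOG00000027433.5 was highest at the low dose of ethanol too, at 6.43 ± 2.5 CPM, against 2.06 ± 0.365 to 3.63 ± 0.214 CPM in the other 5 treated groups and 1.67 ± 0.364 CPM in vehicle (SD, n = 3 each).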

How the data were processed

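Messenger RNA libraries of PC12 cells, made with a directional kit per the labels' protocols, were read as the tables the authors deposited. Per the file headers, these give RSEM expected counts, TPM and FPKM (not used) per Ensembl gene ID, with length and effective length in bases. The submitters' processing notes list RSEM 1.3.3. The aligner, genome build, annotation and counting strand are not given in the sources used here. Of 32883 IDs, 0 matched the RefSeq table of 47357 rat genes, so planned gene and marker lists were not used.

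Expected counts were rounded. The 12241 genes averaging 1 CPM or more across the 6 libraries compared (smallest mean 1.00141, largest left out 0.999376) were tested with edgeR 4.0.16 (R 4.3.3; TMM, robust quasi-likelihood, 1 coefficient for each of the 7 groups, all 21 libraries; Benjamini-Hochberg). CPM used TMM-scaled totals, and log2 CPM a prior count of 2. Fragment length was taken as the median difference between length and effective length, using genes no shorter than 1000 bases. SEs were the absolute log2 change over the square root of F. Alternatives used limma 3.58.1, DESeq2 1.42.0, other filters and other sets of libraries. The test was tested on simulated data. Library pairs within the 2 groups differed beyond counting noise (chi-square per degree of freedom 2.96 to 27.7). Named genes, by ID, were the 2 with the largest change each way among those called with and without low-dose replicate 1 and without overlap of the groups. Members, lists and alternatives were chosen with earlier results of these data known. High-dose ethanol against high-dose water extract was added after the data were seen.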

Additional observations from a re-analysis of the deposited data

How the results depend on the processing

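Low-dose ethanol extract gave 220 higher and 127 lower genes than vehicle. The counts stayed within 1.5 times of these with DESeq2 size factors, limma-voom, edgeR's default filter, no filter, effective length offsets and the fragment length covariate with 21 libraries. They moved to 416 and 305 with DESeq2, 1268 and 1182 with limma-voom weights per library, 61 and 54 in the 6 libraries alone, 696 and 673 with 18 libraries, and 911 and 919 in 5 libraries without low-dose replicate 1. The covariate with 18 libraries gave 198 lower genes. Added after the data were seen, limma-voom weights without low-dose replicate 1 gave 961 and 862. Leaving out 1 library gave 45 to 351 higher and 27 to 200 lower genes.

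Against low-dose water extract (1 higher, 2 lower), DESeq2 gave 14 and 12, limma-voom weights 96 and 83, and 18 libraries 19 and 26. The higher count was 0 with no filter and with the covariate and 21 libraries. Leaving out 1 library gave 0 to 1 higher and 0 to 2 lower genes. Against high-dose ethanol extract (0 higher, 1 lower), DESeq2 gave 8 and 15, limma-voom weights 49 and 59, 18 libraries 42 and 42, and the covariate with 18 libraries 24 and 27. The lower count was 0 with effective length offsets, in the 6 libraries alone and with the covariate and 21 libraries. Leaving out 1 library gave 0 higher and 0 to 1 lower genes. The cause of these shifts was not tested.

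The labels number replicates 1 to 3 in every group, but same-numbered vehicle and low-dose libraries did not deviate together (r = 0.00925, 0.00918 and -0.042 across genes). No vehicle or low-dose library correlated best with the library of its own number in the other group. The replicate block gave 236 higher and 138 lower genes against vehicle, 1 and 2 against low-dose water extract, and 0 and 0 against high-dose ethanol extract. With 18 libraries the replicate block, added after the data were seen, gave 706 and 731, 23 and 29, and 41 and 46. Genes at few counts are limited by the depth of low-dose replicate 1.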
